A study of Mus musculus with 4 samples.

Results

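Secreted defence and detoxification genes of the airway lining were followed through 4 RNA-seq libraries of cultured mouse alveolar type II cells. From the 28096 identifiers of each deposited table, 10 such genes were picked: the secretoglobin genes Scgb1a1, Scgb3a2 and Scgb3a1, the cytochrome P450 gene Cyp2f2, the BPI fold genes Bpifa1 (older name Plunc) and Bpifb1, the mucin gene Muc5b, the chitinase-like gene Chil3, the lectin gene Reg3g and the lactoferrin gene Ltf. They were chosen by their identity as airway secretory genes and by the level and spread of their deposited values over these same libraries. Their levels and ranges are therefore a description and carry no test.

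The 4 libraries carry the single genotype label KRasEtv wt. The design names mice with KRaswt/d12 and RosaCreERT2, alone, with Etv5loxp/loxp, or with Etv4KO/KO and Etv5loxp/loxp, with 4 mice for each of the 3 genotypes. Which of these the label stands for is not stated, and other labels were not analysed here. CreERT2 is a Cre recombinase that acts once tamoxifen or 4-hydroxytamoxifen (4OHT) binds it. Cells positive for EpCAM and negative for CD24, CD45, CD31 and Pdpn were sorted from lung, kept in matrigel and BEGM, a bronchial epithelial medium, with 100 nM 4OHT for 4 days and without it for 1 more day. The labels give no age or sex, do not tie libraries to single mice and number no replicates, so libraries 1 to 4 are names in accession order, and the spread between them may be partly technical.

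Club cells are the secretory cells of the mouse bronchiole. They release secretoglobins and metabolise inhaled chemicals through P450 enzymes such as the product of Cyp2f2, and with goblet and gland cells they coat the airway with mucin, BPI fold proteins, lectins and lactoferrin that trap or bind microbes. Alveolar type II cells, which make surfactant, lie beyond the last bronchioles and are not the usual source of these products.

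Levels are the authors' deposited nRPKM, which is a read count per gene length scaled by a size factor for the library. Division by length lets genes be compared within a library, and the size factor lets libraries be compared. Total counts ran from 12133251 to 13591876 per library, and a count of 0 allows up to 3 reads, at most 0.247 CPM. Markers of the labelled cell type were high: all 16 listed type II genes had a mean of at least 10 nRPKM, and Sftpc had 6301 to 14834. Library 3 stood apart, with Xist, the RNA of the inactive X chromosome, at 66.3 nRPKM against at most 0.784 elsewhere, and the Y-linked Eif2s3y at 0.243 against 14.6 to 23.2. By these 2 genes library 3 read as female and the others as male, so sex cannot be told apart from other traits of library 3. Library 1 was lowest for 15 of the 16 type II genes, against 26.8% of all genes with a mean of at least 1 nRPKM. Mitochondrial ribosomal RNA took 19.6% to 38.9% of the counts.

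**Figure D1:**
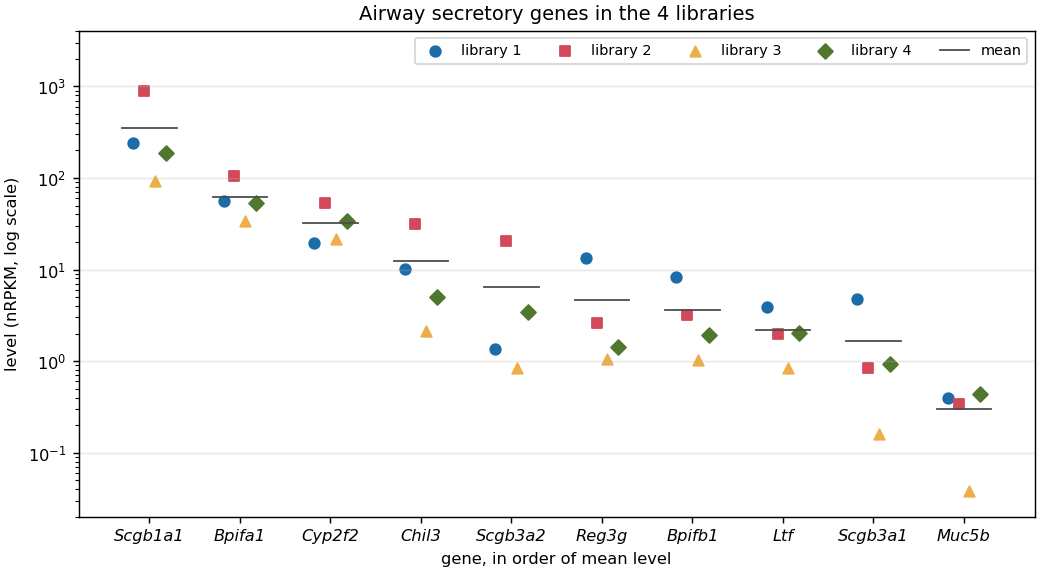
Level in nRPKM (log axis) of each of the 10 genes in libraries 1 to 4 (symbols) with the mean of the 4 (bar), in order of mean level. Library 3 is the lowest symbol for every gene except Cyp2f2, and the highest symbol is library 2 for the 4 most abundant genes and Scgb3a2, library 1 for Reg3g, Bpifb1, Ltf and Scgb3a1, and library 4 for Muc5b.

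The 10 genes spanned 3 orders of magnitude in level, from Scgb1a1 at 350 ± 358 nRPKM to Muc5b at 0.303 ± 0.181 (SD, n = 4 for these and all means below). Of the 10, 9 had a mean of at least 1 nRPKM and 4 of at least 10. Without library 2 the mean of Scgb1a1 was 173 nRPKM. Scgb1a1 ranked 44 among all identifiers by mean level. Bpifa1, Cyp2f2 and Chil3 came next, and in all 4 libraries Scgb1a1 lay above Bpifa1, Bpifa1 above Cyp2f2, and Cyp2f2 above Chil3, which lay above Scgb3a2. Scgb3a1 also lay above Muc5b in all 4. Between these the order varied: Scgb3a2 lay above Reg3g, and Reg3g above Bpifb1, in 2 of 4 libraries, and Bpifb1 above Ltf, and Ltf above Scgb3a1, in 3 of 4.

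Scgb1a1 encodes the main secreted protein of club cells. It had 239, 880, 93.0 and 188 nRPKM in libraries 1 to 4, from 2278, 7309, 911 and 1436 reads. Library 2 held the most and library 3 the least, with a ratio of 9.46 (95% exact counting interval 8.83 to 10.1). Each step between neighbouring libraries was larger than counting error, from 1.27-fold between libraries 1 and 4 to 3.68-fold between libraries 2 and 1. Without library 2 the ratio was 2.57, and without library 3 it was 4.67. In bulk RNA, fewer cells that express a gene and less RNA per cell cannot be told apart.

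Scgb3a2, a secretoglobin of the distal airway, had 1.34, 20.3, 0.851 and 3.42 nRPKM, from 23, 304, 15 and 47 reads. Library 2 again stood highest, 23.9-fold above library 3 (interval 14.3 to 43.2) and 5.94-fold above library 4. Libraries 1 and 3 did not differ beyond counting error (ratio 1.58, interval 0.787 to 3.25). Without library 2 the highest stood 4.03-fold above the lowest, and without library 3 it stood 15.2-fold above.

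Scgb3a1, a secretoglobin of larger airways, followed another order, with 4.76, 0.848, 0.160 and 0.923 nRPKM from 58, 9, 2 and 9 reads. Library 1 was highest, 5.15-fold above library 4, while libraries 2 and 4 did not differ beyond counting error (interval of their ratio 0.383 to 3.10). Library 3 held 2 reads, so the ratio of 29.8 to library 1 has a counting interval from 7.88 to 252. With the floor of 3 reads in library 3 the ratio was 19.9, and without library 1 or library 3 it was 3.85 or 5.61.

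The balance of secretoglobins within a library changed accordingly. Scgb1a1 exceeded Scgb3a1 by 50.2, 1038, 582 and 204 times in libraries 1 to 4, and exceeded Scgb3a2 by 178, 43.3, 109 and 55.0 times. In library 1 Scgb3a2 was 0.282 times the level of Scgb3a1, whereas in libraries 2, 3 and 4 it was 24.0, 5.33 and 3.71 times that level, the value of library 3 resting on 2 reads of Scgb3a1. Sftpc, the surfactant gene of type II cells, exceeded Scgb1a1 by 26.4, 9.52, 160 and 55.8 times. The highest Sftpc and the lowest Scgb1a1 were both in library 3.

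Cyp2f2, the club cell enzyme that activates naphthalene, had 19.7, 53.9, 21.7 and 34.2 nRPKM, from 730 to 1743 reads. It had the narrowest range of the 10 genes, 2.74-fold (interval 2.51 to 2.99), and was the gene whose lowest library was 1 and not 3. These 2 lowest libraries did not differ beyond counting error (ratio 1.10, interval 0.997 to 1.22). The range was unaltered without library 3 and 1.74-fold without library 2.

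Bpifa1, a secreted surface-active protein of the airway, had 55.8, 105, 34.2 and 53.9 nRPKM, from 791 to 2060 reads. The range was 3.07-fold (interval 2.83 to 3.34), with library 2 highest and libraries 1 and 4 alike within counting error (interval of their ratio 0.952 to 1.13). Without library 2 it narrowed to 1.63-fold, and without library 3 to 1.95-fold. Bpifb1, a secreted relative found in mucous cells, had 8.22, 3.22, 1.03 and 1.94 nRPKM from 287, 98, 37 and 54 reads. Here library 1 stood highest, 2.55-fold above library 2 and 7.97-fold above library 3 (interval 5.64 to 11.5). The ratio without library 1 was 3.12 and that without library 3 was 4.25. Bpifa1 therefore exceeded Bpifb1 by 6.79 times in library 1 and by 27.8 to 33.2 times in the others. The genes are neighbours on chromosome 2, with 1 annotated protein-coding gene between them, Bpifa5, which had 1 read in all.

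Muc5b, the gel-forming mucin that clears the mouse airway, was low per length, with 0.400, 0.339, 0.0383 and 0.435 nRPKM. Its long transcript gave 122, 90, 12 and 106 reads, and 3 reads in library 3 would be 0.00957 nRPKM. Libraries 1, 2 and 4 did not differ beyond counting error (intervals of neighbouring ratios 0.830 to 1.42 and 0.892 to 1.57). Library 3 lay 8.85-fold below library 2 (interval 4.82 to 17.8), and without library 3 the range was 1.28-fold.

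Chil3, the chitinase-like protein also known as Ym1, which mouse macrophages and airway cells secrete, had 10.2, 31.7, 2.14 and 5.06 nRPKM from 321, 865, 69 and 127 reads. Libraries 2 and 3 were the extremes, with a ratio of 14.8 (interval 11.6 to 19.2), and each neighbouring step exceeded counting error. The ratio was 4.78 without library 2 and 6.25 without library 3. Of its 50-base words, 29.4% occur in another annotated gene, most often Chil4 or Gm6522. Chil4 had no read, and since reads from shared words can be lost or misplaced, the level of Chil3 is uncertain. The other 9 genes shared no such word.

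Reg3g, a secreted lectin that binds Gram-positive bacteria, had 13.4, 2.62, 1.05 and 1.43 nRPKM from 211, 36, 17 and 18 reads. Library 1 stood 5.10-fold above library 2 and 12.7-fold above library 3 (interval 7.77 to 22.3), and libraries 3 and 4 did not differ beyond counting error (interval 0.662 to 2.81). Without library 1 the range was 2.50-fold, and without library 3 it was 9.37-fold. Ltf, which binds iron in secretions and in neutrophil granules, had 3.90, 1.99, 0.836 and 2.01 nRPKM from 218, 97, 48 and 90 reads. Its range was 4.67-fold (interval 3.40 to 6.52), with libraries 2 and 4 alike within counting error, 2.41-fold without library 1 and 1.96-fold without library 3.

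**Figure D2:**
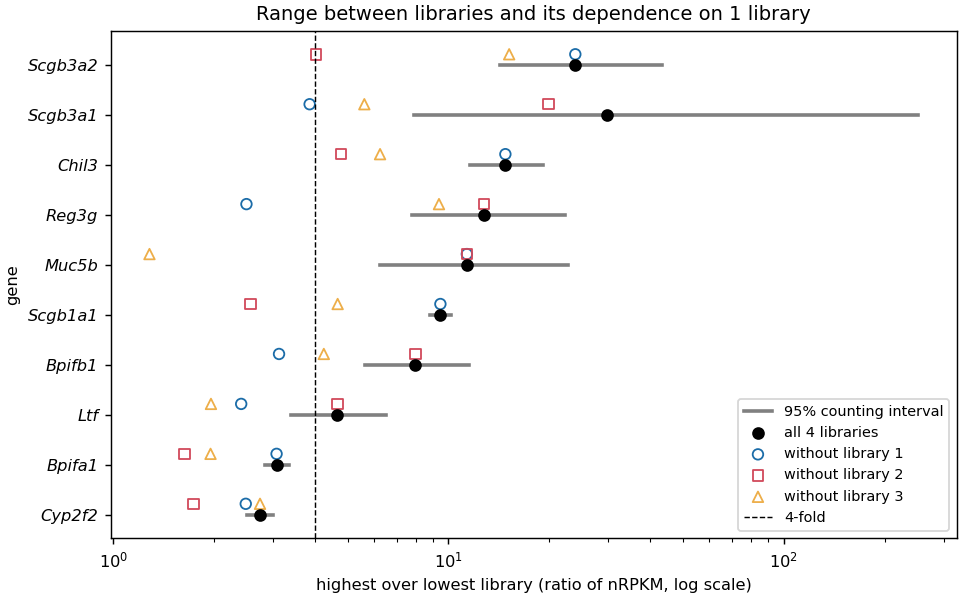
Ratio of the highest to the lowest library in nRPKM (log axis) for each gene over all 4 libraries (black, with its 95% exact counting interval) and without library 1, 2 or 3 (open symbols, with a library under 3 reads set to 3 reads). Muc5b drops from 11.3 to 1.28 without library 3, Reg3g from 12.7 to 2.50 without library 1, and Scgb1a1 from 9.46 to 2.57 without library 2.

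In all, 8 of the 10 genes had a highest library at least 4-fold above the lowest. Ltf lay just inside this limit at 4.67 and Bpifa1 just outside at 3.07. Among the 11904 genes with a mean of at least 1 nRPKM, which leave out Muc5b, 2.6% passed it. Since the 10 genes were picked for their spread, nothing is read from the difference. The number was 4 without library 1 and 6 without library 3. Library 2 was highest for 5 genes (Scgb1a1, Scgb3a2, Cyp2f2, Bpifa1 and Chil3), against 25.4% of all those genes, and library 1 for 4 (Scgb3a1, Bpifb1, Reg3g and Ltf), against 22.5%. Library 4 was highest for Muc5b alone, against 27.6% of genes, and in CPM on total counts Muc5b was highest in library 1. Library 3 was lowest for 9 of the 10, against 18.4% of genes, beyond counting error for 7 of the 9, and library 1 was lowest for Cyp2f2, against 26.8%. These percentages too stand beside counts that the choice of genes shaped.

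**Figure D3:**
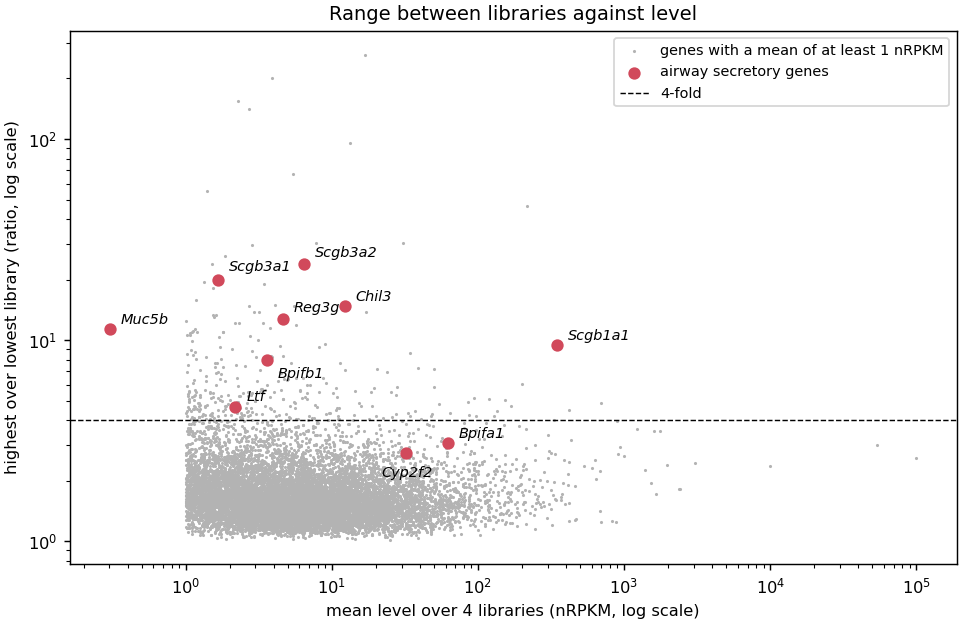
Highest over lowest library (ratio, log axis) against the mean level (nRPKM, log axis) for 11904 genes with a mean of at least 1 nRPKM (grey) and the 10 airway secretory genes (red), with a library under 3 reads set to 3 reads and the 4-fold limit dashed. Of the grey genes 2.6% lie on or above the line, and Bpifa1 and Cyp2f2 are the red points below it.

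Across all genes, the spread between libraries was tested against its trend with edgeR's quasi-likelihood dispersion. The test called 2 of 13156 genes (0.0152%), Xist and Tsix, at an adjusted p under 0.05, and none of the 9 airway secretory genes it included. Scgb3a1 had too few reads to enter. Without the filter on low counts it called 66 of 20579 genes (0.321%), 5 of the 10 among them. The genes were chosen on this spread, so neither count is evidence about them.

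**Figure D4:**
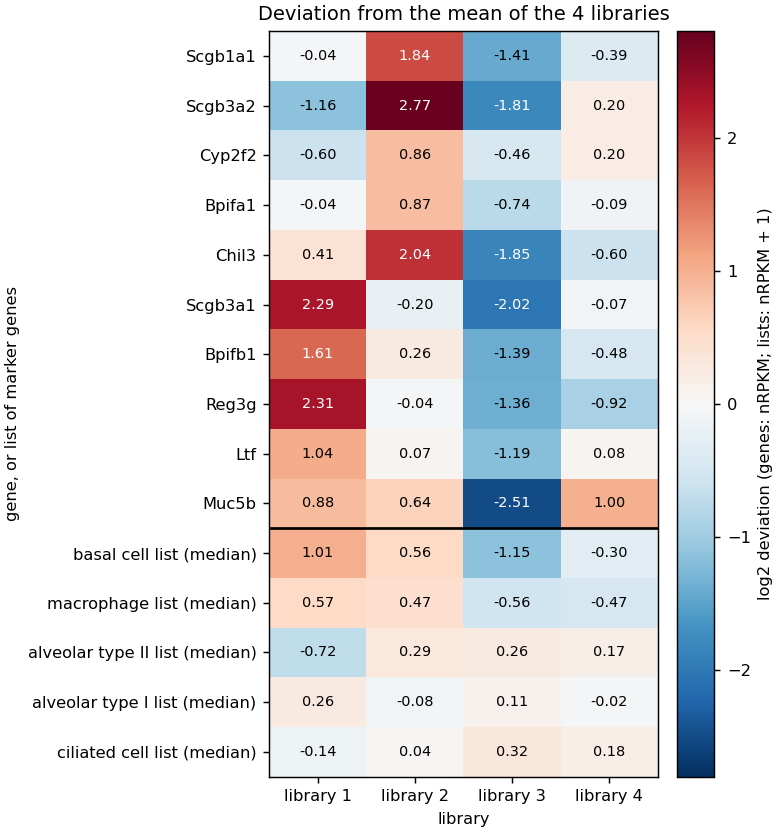
Log2 deviation of each gene from its mean over the 4 libraries (upper block, nRPKM with a floor of 3 reads) and median log2 deviation of the expressed members of 5 marker lists (lower block, nRPKM + 1). Chil3 and the upper 4 genes are darkest red in library 2, at up to 2.77, the next 4 in library 1, at up to 2.31, and the basal cell list reads 1.01, 0.56, -1.15 and -0.30 in libraries 1 to 4.

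The profiles of the 10 genes over the libraries were compared as the root mean square difference of their centred log2(nRPKM + 1), which understates differences of low genes. On this scale Scgb1a1 and Chil3 lay 0.21 log2 units apart, and Scgb3a1 and Bpifb1 lay 0.23 apart. Reg3g lay 0.35 from Scgb3a1 and 0.36 from Bpifb1, and Cyp2f2 lay 0.34 from Bpifa1. Members of one family were not always close: Scgb3a2 and Scgb3a1 lay 1.72 apart, Scgb1a1 and Scgb3a1 1.29, and Bpifa1 and Bpifb1 0.77, while Scgb1a1 and Scgb3a2 lay 0.53 apart.

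Outside the 10, the genes nearest in profile were sought among 6020 genes with a mean of at least 5 nRPKM. Nearest to Scgb1a1 were the mitochondrial complex I gene ND4 (0.42; 560, 1337, 275 and 606 nRPKM), the chemokine gene Ccl6 (0.55; 23.8, 35.5, 7.58 and 8.76 nRPKM) and Tmem243 (0.60). ND4 and Tmem243 were also nearest to Scgb3a2, at 0.69 and 0.71, with St8sia6 at 0.79. Ccl6 (0.49), ND4 (0.54) and the keratin gene Krt6a (0.56) were nearest to Chil3. Cyp2f2 was matched by St8sia6 (0.07), Selenop (0.19) and Tmem243 (0.20), and Bpifa1 by the transfer RNA gene TrnI (0.13), Mir5125 (0.14) and Snord4a (0.19).

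The genes highest in library 1 had other neighbours. Scgb3a1 lay nearest to the collagenase gene Mmp13 (0.10; 14.6, 4.70, 2.25 and 3.90 nRPKM), the protease inhibitor gene Timp1 (0.13) and the matrix protein gene Mgp (0.17). Bpifb1 lay nearest to Mmp13 (0.13), Fgfbp1 (0.17) and the intermediate filament gene Vim (0.18). Reg3g was closest to the gut hormone gene Cck (0.12; 122, 35.1, 17.0 and 24.4 nRPKM), Timp1 (0.24) and the proteoglycan gene Dcn (0.28). Ltf was closest to the claudin gene Cldn6 (0.05), the desmosome gene Perp (0.07) and Pcolce (0.11). For Muc5b, whose level under 1 nRPKM leaves almost no variation on this scale, the rule returned Serpinb9, Peak1 and Mast4 at 0.02 to 0.03. Of these 30 neighbours, 15 were also found with a pseudocount of 0.1.

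**Figure D5:**
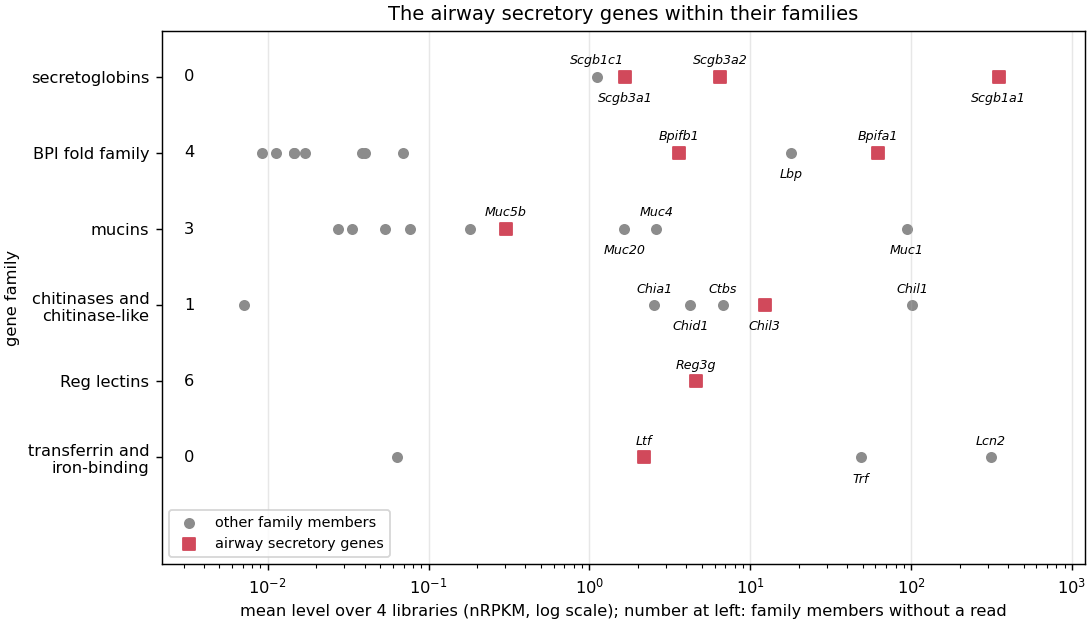
Mean level over the 4 libraries (nRPKM, log axis) of the airway secretory genes (red squares) and of the other listed members of their families (grey), with the number of family members without a read at the left. Reg3g is alone in its family, and Muc5b (0.303 nRPKM) lies below Muc1 (94.4 nRPKM) and Muc4 (2.60 nRPKM).

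Set among their families, the genes were a selected part of each. The fourth listed secretoglobin, Scgb1c1, had 1.12 ± 0.756 nRPKM on 2 to 16 reads. Of the 13 other BPI fold genes, only Lbp, the lipopolysaccharide-binding protein gene, reached a mean of 1 nRPKM, at 17.8 ± 6.10, and 4 had no read. Next were Bpifb4 at 0.0690 nRPKM and Bpifb9b at 0.0403. All 6 other Reg genes were without a read in any library, which allows up to 3 reads per library, so Reg3g was the one Reg transcript detected.

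Of the 11 other mucins, 3 reached a mean of 1 nRPKM. The membrane mucin Muc1, a marker of many epithelia, had 30.0, 154, 103 and 89.7 nRPKM, lowest in library 1 and not in library 3. Muc4 had 2.60 ± 1.46 nRPKM and Muc20 had 1.64 ± 0.345. Among chitinases, Chil1, which is also among the listed type II genes, had 40.5, 128, 130 and 108 nRPKM, again lowest in library 1. Ctbs followed at 6.73 ± 0.940 and Chid1 at 4.23 ± 0.652. Of the iron-binding group, Lcn2, which captures bacterial siderophores, had 173, 401, 475 and 207 nRPKM, and Trf, the serum iron carrier, 48.5 ± 15.3, both far above Ltf, while Meltf had 0.0639.

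The wider airway secretory lists held 152 genes in 11 groups, 142 of them outside the 10. Of these 142, 76 had a mean of at least 1 nRPKM, 38 of at least 10, and 25 had no read. The edgeR test took in 73 and called none (0.0152% of all genes), with 15 at an unadjusted p under 0.05, beside 675 of all 13156 genes. Without the filter it called 2 of the 142, Cyp2b10 and Gabrp (0.321% of all genes). Library 3 was lowest for 21 of the 76 (18.4% of all genes) and library 1 for 27 (26.8%), while library 2 was highest for 29 (25.4%) and library 1 for 18 (22.5%).

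Among the 76, 8 had a range of at least 4-fold, which 2.6% of all genes had: Scgb1c1, Muc1, Cyp2b10, Gabrp, Agr2, Lypd2, Lrrc26 and Retnla, the last 4 named after their values were seen. Agr2, a protein disulfide isomerase needed for mucin folding, had 4.58, 0.815, 0.440 and 0.888 nRPKM from 71, 11, 7 and 11 reads. The airway marker Lypd2 had 2.49, 1.03, 0.194 and 0.374 nRPKM on 2 to 25 reads. For both, library 1 held the most and library 3 the least, as for Scgb3a1, Bpifb1, Reg3g and Ltf. Gabrp, a GABA receptor subunit of airway epithelium, ran from 1.56 nRPKM in library 3 to 14.8 in library 1, and the P450 gene Cyp2b10 from 1.96 in library 2 to 12.6 in library 1. Lrrc26 (1.63, 1.68, 0.158 and 0.610 nRPKM) and the resistin-like Retnla (2.54, 4.71, 2.08 and 1.03 nRPKM) rested on 4 to 50 reads.

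Other genes often listed for club cells included some of high level. Of 21 club metabolism genes besides Cyp2f2, 15 reached a mean of 1 nRPKM, led by the glutathione transferase Gsta4 (368 ± 72.7), the carbonyl reductase Cbr2 (112 ± 20.1) and Cyp1b1 (99.9 ± 41.0). Of the 24 other club and goblet markers, 11 reached 1 nRPKM, among them the keratin gene Krt7 (165 ± 34.9) and Dcxr (27.2 ± 8.41). Secreted defence genes reached it in 9 of 22 cases, with Lyz2 at 1663 ± 381, Wfdc2 at 437 ± 187 and Sftpd at 285 ± 92.4, and of these Lyz2 and Sftpd are also type II products. Regulators of secretory fate reached it in 22 of 26 cases, led by Nkx2-1 (94.6 ± 32.7), Xbp1 (39.1 ± 8.68) and Klf5 (38.3 ± 11.5). Nkx2-1 is also among the listed type II genes. Spdef, the goblet cell factor, had 4 or 5 reads per library. Cytokine receptors that act on mucous cells did so in 8 of 9 cases, with Il6st at 18.5 ± 2.43, Il4ra at 9.96 ± 1.09 and Il10rb at 7.23 ± 0.628 nRPKM.

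Marker lists of other cell types differed in how they ran over the libraries. Of 12 basal cell genes, 8 reached a mean of 1 nRPKM and 1 had no read. Of the 8, 7 were lowest in library 3 (18.4% of all genes) and 6 highest in library 1 (22.5%). A range of at least 4-fold was held by 6 of the 8 (2.6% of all genes). The edgeR test called none of the 10 it took in, with 9 at an unadjusted p under 0.05, beside 675 of all 13156 genes. Without the filter it called 4 of the list (0.321% of all genes). The summed level of the 12 was 193, 150, 47.8 and 76.1 nRPKM in libraries 1 to 4. Krt5, the basal keratin, had 70.6, 37.9, 8.22 and 19.4 nRPKM, and the defining factor Trp63 had 133, 76, 19 and 37 reads. Krt6a had 23.9 ± 16.1 nRPKM and Pdpn, shared with type I cells, 21.1 ± 5.34. The part of basal cells in the levels of the secretory genes was not tested.

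Of 18 macrophage genes, 12 reached 1 nRPKM, none was without a read, and their sum was 128, 115, 56.4 and 47.2 nRPKM. Of the 12, 7 were highest in library 1 (22.5% of all genes) and 5 in library 2 (25.4%). Lowest were 7 in library 3 (18.4%) and 5 in library 4, for which the share of all genes was not counted. A range of at least 4-fold was held by 6 of the 12 (2.6% of all genes). The edgeR test called none of the 13 it took in, with 8 at an unadjusted p under 0.05, beside 675 of all 13156 genes. Without the filter it called 1 of the list (0.321% of all genes). Cd68 (35.3, 25.3, 15.6 and 10.5 nRPKM), Plet1 (15.6 ± 6.74) and Cd14 (15.2 ± 2.81) led the list, while the alveolar macrophage marker Siglecf had 18, 19, 4 and 4 reads. Of 15 neutrophil genes, 3 reached 1 nRPKM: Lcn2, Mmp8 (2.96 ± 1.62) and S100a8 (39, 10, 1 and 0 reads). The granule genes Mpo, Elane and Fcnb had no read, and without Lcn2 the sum was 11.9, 5.95, 4.35 and 2.55 nRPKM, beside 3.90, 1.99, 0.836 and 2.01 nRPKM of Ltf. The sort took CD45-negative cells, a gate that leaves out leukocytes, and the part of macrophages and neutrophils in Chil3 and Ltf was not tested.

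Ciliated cell genes reached 1 nRPKM in 5 of 16 cases, led by Tubb4b (39.8 ± 7.43), Sec14l3 (26.4 ± 10.3) and Tppp3 (11.6 ± 3.40). Their sum was 71.8, 73.9, 100 and 85.9 nRPKM, and without Tubb4b it was 34.9, 33.4, 50.7 and 53.8 nRPKM. Of the 5, 3 were highest in library 4 (27.6% of all genes), 1 in library 3 and 1 in library 2 (25.4%). The defining factor Foxj1 had 1 to 9 reads. The 16 type II genes, led by Sftpc, Sftpb (3065 ± 1133) and Cxcl15 (1527 ± 404), summed to 10752, 17913, 22931 and 17714 nRPKM. The 10 type I genes summed to 715 to 947 nRPKM, with Gprc5a at 223 ± 50.6, Aqp5 at 185 ± 15.6 and Ager at 156 ± 48.1. Neuroendocrine, tuft and ionocyte genes reached 1 nRPKM in 3 of 12 cases, with Cftr at 6.02 ± 1.43, Dclk1 at 1.24 ± 0.203 and Uchl1 at 1.18 ± 1.32. A range of at least 4-fold (2.6% of all genes) was held by 1 of these 3 and by 1 of the 3 neutrophil genes. Among ciliated, type II and type I genes with a mean of at least 1 nRPKM, none had it.

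Promoter windows of 250 bases before to 50 after the start site were taken from RefSeq (GRCm38.p6) for 7 of the 10 genes, in 8 windows. Scgb1a1, Scgb3a2 and Muc5b had no entry. Windows of 2 genes highest in library 2 and of 2 highest in library 1 are shown as examples, 5′ to 3′ on the gene's strand, with matches to the motifs named in the next paragraph in capitals.
Bpifa1, chr2:154142630-154142929, plus strand: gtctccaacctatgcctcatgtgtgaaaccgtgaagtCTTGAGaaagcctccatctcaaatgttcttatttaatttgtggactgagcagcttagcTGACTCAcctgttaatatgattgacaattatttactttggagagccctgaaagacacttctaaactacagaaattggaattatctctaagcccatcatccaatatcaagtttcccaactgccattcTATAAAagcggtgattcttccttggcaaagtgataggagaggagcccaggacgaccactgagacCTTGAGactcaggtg
Chil3, chr3:106167515-106167814, minus strand: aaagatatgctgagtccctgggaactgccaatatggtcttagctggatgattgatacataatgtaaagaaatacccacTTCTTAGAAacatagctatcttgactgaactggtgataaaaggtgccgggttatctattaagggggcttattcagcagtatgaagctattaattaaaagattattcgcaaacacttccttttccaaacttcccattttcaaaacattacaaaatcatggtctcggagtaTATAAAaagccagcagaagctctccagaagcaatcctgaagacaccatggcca
Scgb3a1, chr11:49663345-49663644, plus strand: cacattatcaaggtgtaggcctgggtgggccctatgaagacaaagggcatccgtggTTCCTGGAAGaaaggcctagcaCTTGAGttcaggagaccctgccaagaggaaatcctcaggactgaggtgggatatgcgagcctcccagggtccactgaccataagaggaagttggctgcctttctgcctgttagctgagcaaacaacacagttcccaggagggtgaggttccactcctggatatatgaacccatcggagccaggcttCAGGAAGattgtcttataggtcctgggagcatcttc
Reg3g, chr6:78468825-78469124, minus strand: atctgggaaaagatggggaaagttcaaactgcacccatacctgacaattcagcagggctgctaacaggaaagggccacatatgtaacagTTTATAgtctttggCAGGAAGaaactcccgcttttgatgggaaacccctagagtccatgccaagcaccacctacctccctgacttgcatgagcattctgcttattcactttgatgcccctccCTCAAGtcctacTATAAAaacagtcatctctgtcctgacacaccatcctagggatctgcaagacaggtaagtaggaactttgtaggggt

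Short motifs of 7 kinds were searched on both strands, and an ETS match can overlap a STAT match. The ETS letters CNGGAAG were in windows of 5 of the 7 genes (Bpifb1, Cyp2f2, Ltf, Reg3g and Scgb3a1) and in 31.9% of all 32851 windows. The letters CTCAAG, for NKX2-1, a lung epithelial factor, were in 3 genes, Bpifa1, Reg3g and Scgb3a1, and in 15.9% of windows. The STAT letters TTCNNNGAA were in Bpifb1, Chil3 and Scgb3a1 and in 8.30% of windows, and in Bpifb1 and Scgb3a1 the match overlapped an ETS match. The letters TATAAA were in Bpifa1, Chil3 and Reg3g and in 13.6% of windows, beginning at -29 in Bpifa1, at -161 and -27 in Reg3g and, across the annotated start site, at -3 in Chil3. For AP-1 the letters TGANTCA were in Bpifa1 alone and in 7.81% of windows. For C/EBP the letters TTGCNNAA were in Ltf alone and in 10.8% of windows. The FOXA letters TGTTTAC were in none of the 7 genes and in 3.65% of windows. These are letter matches in short windows, and binding was not measured.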

How the data were processed

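Polyadenylated RNA of 4 libraries of 1 label was analysed, so no contrast between conditions was possible. Per the file headers, the authors' deposited count is the number of reads aligned uniquely to a gene model, and the deposited RPKM (nRPKM) is adjusted by a size factor. Per the submitters' processing notes, GSNAP and mm9 were used. The sources used here do not give strand use, annotation or versions, so antisense or overlapping transcripts cannot be separated. The deposited RPKM equalled count times a library factor over a gene constant in every row. Symbols came from RefSeq (GRCm38.p6), for 25035 of 28096 identifiers, as names only, since that build differs from mm9. Words of 50 bases shared between genes came from GENCODE M21 transcripts.

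Levels are nRPKM with SD over libraries. Ratios of libraries carry 95% exact conditional binomial (Clopper-Pearson) intervals from the counts, which leave out all error but counting, as PCR duplicates carry no molecular identifier. Spread was tested with edgeR 4.0.16 (R 4.3.3): an intercept, TMM, filterByExpr, quasi-dispersion over its trended prior against F, and Benjamini-Hochberg adjustment at 0.05, after a check on simulated counts. DESeq2 1.42.0 was an alternative. Genes named were the 10, the 3 highest of each list, secretory genes of at least 5 nRPKM and 4-fold range, and 3 nearest profiles per gene; others (Agr2, Lypd2, Lrrc26, Retnla, Siglecf, Trp63, Foxj1, Spdef and the granule genes) were added after their values were seen, and 1 gene the rule names is not reported here. The 10 genes and all lists were chosen with earlier results of these data known.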

Additional observations from a re-analysis of the deposited data

Results flagged for a closer look

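Over 61 genes examined, 5 had 1 library whose gap to the next exceeded Dixon's 95% limit for 4 values. For normally distributed values, chance gives this in about 1 of 20 genes not picked on their values. The gaps were taken on nRPKM without logarithms, and whether such values are normally distributed was not tested. The 5 were Scgb3a2 in library 2 (20.3 nRPKM), and Scgb3a1 (4.76), Reg3g (13.4), Agr2 (4.58) and Cyp1b1 (161) in library 1, each as the highest value. The gap took 0.834 to 0.892 of the range of the 4 libraries. Scgb3a2, Scgb3a1 and Reg3g were picked for their spread and Agr2 was named after its values were seen, so that rate does not apply to them.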

How the results depend on the processing

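The number of the 10 genes with a 4-fold range was 8 in nRPKM and in each of 3 CPM scalings, 6 and 7 with pseudocounts of 1 and 0.1, and 4 to 8 when 1 library was left out. The share of all genes past that limit was 1.05% with a pseudocount of 1 and 1.33% to 1.93% with 1 library left out. Genes called for spread by edgeR were 66 without the filter, and from 0 to 6 with 1 library left out; there were 0 without library 2 (640 at an unadjusted p under 0.05) and 0 without library 3 (619). DESeq2 gave 62 dispersion outliers. Of the 30 nearest genes, 15 were kept with a pseudocount of 0.1. Means rested on single libraries: without library 2 that of Scgb1a1 was 173 nRPKM in place of 350, of Scgb3a2 1.87 in place of 6.49 and of Chil3 5.81 in place of 12.3; without library 1 that of Reg3g was 1.70 in place of 4.62, of Scgb3a1 0.644 in place of 1.67 and of Bpifb1 2.06 in place of 3.60. Ranges moved by less than 1 SD in 78 of 90 values, which is no measure of stability. Leaving out a library that is neither highest nor lowest cannot alter a range, so part of the 78 was fixed in advance. The 78 also include Chil3 without library 2, which went from 14.8-fold to 4.78-fold. Muc5b was highest in library 1 in place of 4 in CPM on total counts and in CPM without mt-Rnr1 and mt-Rnr2; no other gene changed its highest or lowest library under the 3 scalings. No paired analysis was possible because there is a single group. Values of Scgb3a1 rest on 2 to 58 reads, those of Reg3g on 17 to 211 and those of Scgb3a2 on 15 to 304, which limits their precision.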
